A study of Mus musculus with 7 samples.

Results

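The genes described here are 46 axon guidance ligands and receptors of the mouse cerebral cortex, taken as the rows of the deposited gene table that carry exactly their symbols, out of 36666 genes listed. They comprise 20 ligands (Slits, a netrin, semaphorins and ephrins) and 26 receptors (Robos, netrin receptors, plexins, neuropilins and Eph receptors). RNA of C57BL/6 cerebral cortex was measured by mRNA sequencing in 3 samples from adult mice, described as young adults with no age in days, and in 4 samples at embryonic day 17. Both groups are of the same strain, and the labels give no treatment or mutant allele for either. The labels do not say whether each sample is 1 animal, so the p-values below reflect how far these samples spread, which may be technical.

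Axon guidance ligands are secreted or membrane-bound proteins that attract or repel growing axons and migrating neurons through receptors on the cell surface. Slits act through Robo receptors, netrins through Dcc and Unc5 receptors, semaphorins through plexins with or without a neuropilin, and ephrins through Eph receptor tyrosine kinases, with ephrins also signalling back into the cells that carry them. Late in gestation the mouse cortex is laying down its long axon tracts, whereas in the adult the same molecules are known for roles at synapses, in myelinating cells and in blood vessels.

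The recovered number of reads in genes was, in units of 1000000 reads, 22.9, 23.6 and 22.7 in the adult samples, against 18.4, 22.6, 21.3 and 21.6 in the embryonic samples. Levels below are given as CPM, each gene's recovered reads scaled to a library of 1000000 reads in genes, and differences are adult minus embryonic means of the deposited values, on a log2-like scale on which 1 is close to a 2-fold difference for well expressed genes and understates it for genes with few reads. CPM and the deposited values are not scaled alike, so a small difference can depart from the ratio of the CPM beside it. For Plxnd1 the adult mean was below the embryonic one in CPM (110 against 111 CPM) but above it in deposited values (0.06). A gene was called where its limma p-value, adjusted over all 22828 genes tested, was under 0.05. Markers of several cell types differed between the groups. The summed level of 7 oligodendrocyte markers was 4157 to 7466 CPM in adult samples, against 59.6 to 65.8 CPM in embryonic samples, and that of 6 astrocyte markers was 4182 to 5015 CPM, against 179 to 184 CPM. Dividing progenitor markers (8 genes) summed to 63.0 to 96.6 CPM in adult samples, against 480 to 681 CPM in embryonic samples, and immature neuron markers (6 genes) to 915 to 1114 CPM, against 5513 to 5741 CPM. Cortical neuron markers (8 genes) were present in all 7 libraries, at 1701 to 1829 CPM in adult samples and 2142 to 2278 CPM in embryonic samples. The adult sum was carried by Slc17a7, the vesicular glutamate transporter of mature excitatory neurons, and the other 7 markers, all called lower, summed to 426 to 490 CPM in adult samples, against 2081 to 2225 CPM in embryonic samples. Choroid plexus markers (6 genes) summed to 590 to 726 CPM in adult samples, against 1.65 to 3.01 CPM in embryonic samples. Striatal markers (8 genes) summed to 924 to 1040 CPM, against 154 to 165 CPM, although Foxp2 among them was lower (25.2 against 50.3 CPM). Thalamic markers (6 genes) summed to 241 to 367 CPM in adult samples, against 64.3 to 71.0 CPM in embryonic samples. Markers of meninges and fibroblasts (6 genes) summed to 68.8 to 77.3 CPM, against 5.65 to 10.1 CPM. In whole tissue, fewer cells of a type and less RNA per cell cannot be told apart. The part of these cell types and tissues in the differences below was not tested.

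Most of the 46 genes had lower RNA levels in adult cortex. All 46 could be tested: 15 were higher in adult cortex, 27 were lower and 4 (Slit1, Sema5a, Plxnc1 and Plxnd1) were not called. Of all genes tested 69.7% were called, 35.8% as higher and 33.9% as lower in adult cortex, so a call was common in this comparison. Their median difference was −0.57, against 0.03 over all genes tested. On the deposited scale the adult and embryonic samples did not overlap for 39 of the 46, against 68.9% of all genes, and in CPM for 38 of them, the exception being Epha4. The receptors gave 7 higher and 17 lower calls of 26 with a median difference of −1.10, and the ligands gave 8 higher and 10 lower of 20 with a median of −0.17. Against a null of 2-fold (limma treat), 4 genes stayed higher in adult cortex (Slit3, Sema3e, Plxnb3 and Epha6), against 14.0% of all genes. Under the same null 16 stayed lower, against 8.47% of all genes, and 12 of those 16 were receptors. Summed over the 46 genes, the level was 2862, 2989 and 2843 CPM in the adult samples, against 6352, 6409, 5456 and 6245 CPM in the embryonic samples.

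**Figure D1:**
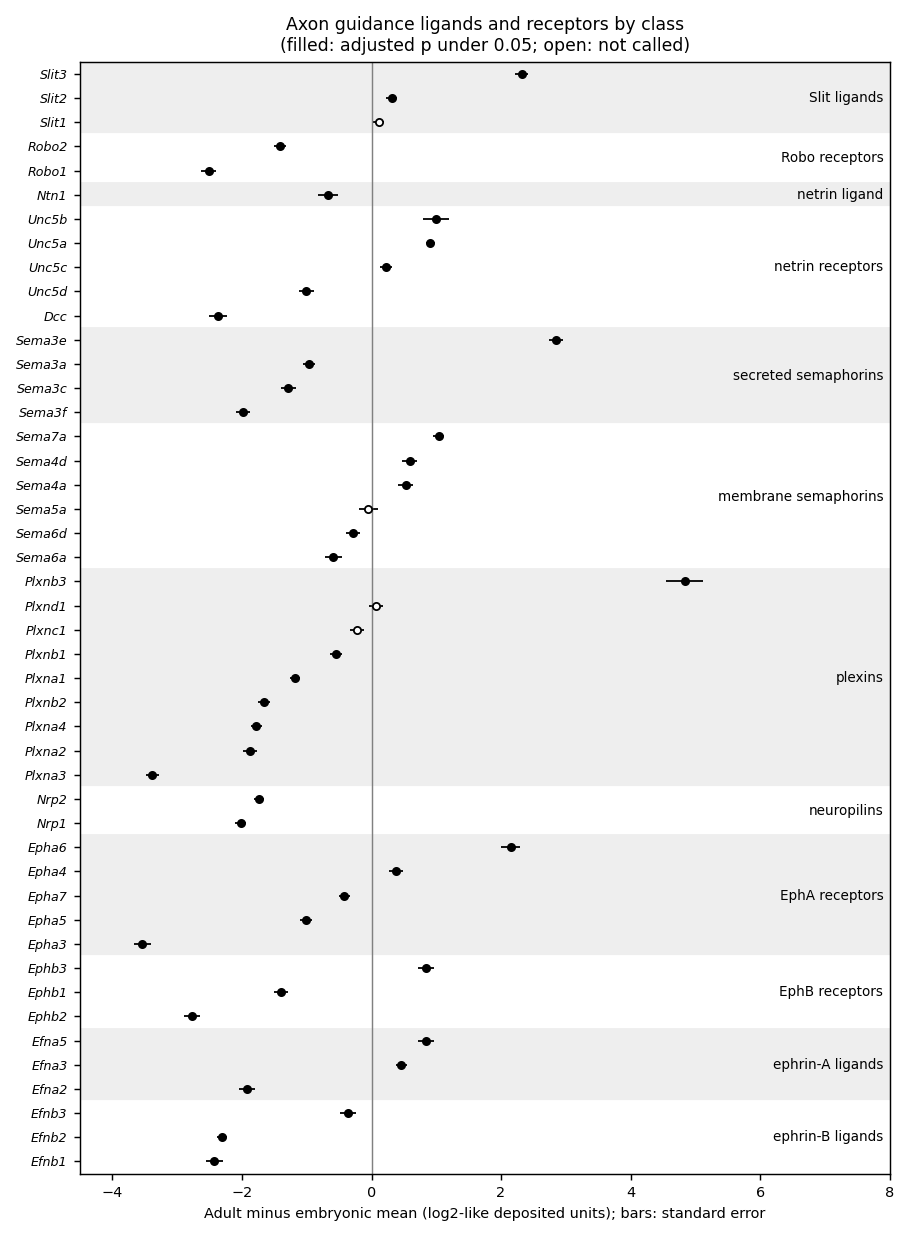
Difference between the adult (n = 3) and embryonic (n = 4) means for each of the 46 genes, by class, in log2-like deposited units with its standard error. Filled points passed the adjusted threshold; the range runs from −3.54 for Epha3 to 4.83 for Plxnb3, and 7 of the 12 classes hold genes called in both directions.

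Among the 46 genes the Robos, neuropilins and ephrin-B ligands each differed in 1 direction. In contrast, 2 pairs of receptors of the same class and chromosome differed in opposite directions. They were Plxna3 and Plxnb3 on the X chromosome, and Epha3 and Epha6 on chromosome 16. Ephb3, of the EphB class, also lies on chromosome 16 and was higher. The upstream sequences of the 2 pairs are shown because each pair sets a receptor that was lower in adult cortex beside a relative that was higher. Each is the 250 bases before the gene's start in RefSeq on build GRCm38.p6, 5′ to 3′ on the gene's own strand, with CG dinucleotides in capitals. They lie at chrX:74328816-74329065 (plus strand, Plxna3), chrX:73756853-73757102 (plus strand, Plxnb3), chr16:63864176-63864425 (minus strand, Epha3) and chr16:60605532-60605781 (minus strand, Epha6).
Plxna3: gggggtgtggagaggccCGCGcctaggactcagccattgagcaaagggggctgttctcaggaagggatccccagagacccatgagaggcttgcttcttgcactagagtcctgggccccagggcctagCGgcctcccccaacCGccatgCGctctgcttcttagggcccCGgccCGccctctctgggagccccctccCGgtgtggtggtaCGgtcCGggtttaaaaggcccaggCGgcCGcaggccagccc
Plxnb3: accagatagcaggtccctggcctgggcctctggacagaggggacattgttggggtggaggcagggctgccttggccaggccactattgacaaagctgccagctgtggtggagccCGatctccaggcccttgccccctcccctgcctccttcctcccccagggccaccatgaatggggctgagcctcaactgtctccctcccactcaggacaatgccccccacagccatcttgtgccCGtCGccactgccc
Epha3: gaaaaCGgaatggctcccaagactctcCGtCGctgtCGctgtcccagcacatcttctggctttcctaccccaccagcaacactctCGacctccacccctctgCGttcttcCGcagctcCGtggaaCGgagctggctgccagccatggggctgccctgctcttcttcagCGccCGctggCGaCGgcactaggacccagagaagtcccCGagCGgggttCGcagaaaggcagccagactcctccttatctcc
Epha6: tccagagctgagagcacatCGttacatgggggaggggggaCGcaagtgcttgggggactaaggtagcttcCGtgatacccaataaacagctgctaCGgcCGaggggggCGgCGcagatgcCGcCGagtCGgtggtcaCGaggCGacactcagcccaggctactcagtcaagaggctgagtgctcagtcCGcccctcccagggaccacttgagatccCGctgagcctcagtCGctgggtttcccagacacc
The dinucleotide CG was counted 12 times before Plxna3, 3 times before Plxnb3, 16 times before Epha3 and 15 times before Epha6. The letters CG read the same on both strands, so a count holds for both. Over 27025 genes with such a sequence the median count was 6 and 91.7% held at least 1 CG. A sequence was present for 37 of the 46 genes, all with at least 1 CG, and the median count was 17 for the 15 genes called higher in adult cortex and 18 for 19 of the genes called lower.

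Of the 3 Slit ligands, secreted repellents, 2 were higher in adult cortex and 1 was not called, while their receptors Robo1 and Robo2 were lower. Slit3 had 46.6, 46.7 and 53.0 CPM in the adult samples, against 10.03, 8.42, 10.8 and 9.75 CPM in the embryonic samples. All adult samples lay above all embryonic ones, and the difference was 2.32 (SE 0.10, adjusted p = 1.17e-10). Slit2 was higher by 0.31 (SE 0.09, adjusted p = 0.00672), a call that was lost when samples were centred on their medians. Slit1 had 103, 94.0 and 96.9 CPM in the adult samples, against 101, 107, 85.9 and 92.2 CPM in the embryonic samples. The groups overlapped and Slit1 was not called (0.11, SE 0.09, adjusted p = 0.262), with the opposite sign after that centring.

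Robo1 and Robo2, immunoglobulin-family receptors for Slits, were lower in adult cortex. Robo1 had 59.2, 68.7 and 51.3 CPM in the adult samples, against 407, 378, 303 and 379 CPM in the embryonic samples. Robo2 had 133, 121 and 121 CPM in the adult samples, against 385, 370, 294 and 374 CPM in the embryonic samples. No adult sample reached the lowest embryonic one for either gene, and the differences were −2.52 (SE 0.11, adjusted p = 1.42e-10) for Robo1 and −1.41 (SE 0.09, adjusted p = 7.91e-09) for Robo2. Summed, the Robo genes had 185 ± 10.98 CPM in adult cortex and 723 ± 86.2 CPM in embryonic cortex, while the Slits had 181 ± 2.998 CPM in adult cortex and 135 ± 9.37 CPM in embryonic cortex (SD, n = 3 and n = 4).

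Netrin-1 (Ntn1), a secreted laminin-related cue, and Dcc, the receptor for attraction to it, were both lower in adult cortex. Ntn1 had 14.3, 18.7 and 15.5 CPM in the adult samples, against 28.4, 34.0, 19.9 and 29.9 CPM in the embryonic samples, with a difference of −0.67 (SE 0.15, adjusted p = 0.00134). Dcc had 13.9, 16.1 and 12.8 CPM in the adult samples, against 86.6, 98.6, 61.5 and 84.0 CPM in the embryonic samples, with a difference of −2.37 (SE 0.14, adjusted p = 1.76e-09). The groups did not overlap for either gene, and embryonic replicate 3 was the lowest embryonic sample for both.

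The 4 Unc5 genes, death-domain receptors linked to repulsion by netrins, went in both directions. Unc5b had 30.6, 58.0 and 26.1 CPM in the adult samples, against 19.9, 19.8, 17.9 and 17.2 CPM in the embryonic samples. It was higher in adult cortex by 0.999 (SE 0.20, adjusted p = 0.000504), with adult replicate 2 well above the other adult samples, and by 0.65 without that sample (adjusted p = 0.000133). That sample also had the highest sum of oligodendrocyte markers (7466 CPM, against 5216 and 4157 CPM in adult replicates 1 and 3), and the relation was not tested. Unc5a was higher by 0.91 (SE 0.07, adjusted p = 5.69e-08) and Unc5d, the member with marked expression in developing upper-layer neurons, was lower (−1.01, SE 0.12, adjusted p = 2.68e-06). Unc5c was called higher by 0.22 (SE 0.09, adjusted p = 0.0488) although its groups overlapped, at 41.0 to 44.3 CPM in adult samples and 34.4 to 44.6 CPM in embryonic samples. Without any one of adult replicates 1 to 3 or embryonic replicates 1 to 3 its adjusted p lay between 0.0682 (without adult replicate 2) and 0.142 (without embryonic replicate 2), so the call rested on all of them.

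Among the 4 secreted semaphorins of the 46 genes, Sema3e was higher and the other 3 were lower. Sema3b, Sema3d and Sema3g, secreted semaphorins outside the 46 genes, were higher like Sema3e. Sema3e, which is known to bind plexin D1 without a neuropilin, had 40.4, 35.4 and 42.4 CPM in the adult samples, against 5.64, 4.61, 4.94 and 5.64 CPM in the embryonic samples. Every adult sample lay above every embryonic one, and the difference was 2.85 (SE 0.11, adjusted p = 2.49e-11). Sema3f, a repellent that binds neuropilin-2, had 9.08, 12.7 and 11.1 CPM in the adult samples, against 48.7, 49.9, 46.3 and 47.4 CPM in the embryonic samples. Its groups were as clearly apart in the other direction (−1.99, SE 0.11, adjusted p = 9.94e-10). Sema3a, the classical repellent acting through neuropilin-1, and Sema3c were lower as well, by −0.97 (SE 0.09, adjusted p = 4.21e-07) and −1.28 (SE 0.12, adjusted p = 3.43e-07).

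The 6 membrane-bound semaphorins as a class differed little in summed level, at 437 ± 44.0 CPM in adult cortex and 392 ± 25.8 CPM in embryonic cortex, and split into 3 higher, 2 lower and 1 not called. Sema7a, which is held by a lipid anchor and binds plexin C1 and integrins, had 136, 150 and 164 CPM in the adult samples, against 76.1, 77.6, 80.2 and 73.6 CPM in the embryonic samples. The groups did not overlap (1.03, SE 0.08, adjusted p = 5.14e-08). Sema6a, a transmembrane ligand of plexins A2 and A4, had 37.2, 57.9 and 38.6 CPM in the adult samples, against 72.4, 66.8, 73.5 and 68.1 CPM in the embryonic samples, and was lower (−0.59, SE 0.13, adjusted p = 0.00109).

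Sema5a, a semaphorin with thrombospondin repeats, had 68.3, 69.1 and 60.6 CPM in the adult samples, against 75.4, 87.7, 51.4 and 80.3 CPM in the embryonic samples. The adult values lay inside the embryonic range, and Sema5a was not called (−0.05, SE 0.14, adjusted p = 0.779); the sign turned without adult replicate 3 (0.01) and without embryonic replicate 2 (0.05). Sema4a and Sema4d were higher by 0.53 (SE 0.12, adjusted p = 0.00102) and 0.59 (SE 0.11, adjusted p = 0.000408), both with their highest level in adult replicate 2. Sema6d was called lower (−0.28, SE 0.11, adjusted p = 0.0374) with overlapping groups, a call lost without any one of adult replicates 1 or 3 and embryonic replicates 1, 2 or 4, with adjusted p between 0.0939 (without embryonic replicate 4) and 0.137 (without adult replicate 3).

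Plexins, the signal-transducing receptors of semaphorins, held both the largest sum of any class and its widest spread of directions. Their summed level was 820, 858 and 889 CPM in the adult samples, against 2482, 2546, 2151 and 2421 CPM in the embryonic samples. Plxna1, Plxna2, Plxna3, Plxna4, Plxnb1 and Plxnb2 were lower in adult cortex, by −0.55 (Plxnb1) to −3.38 (Plxna3), and Plxnb3 alone of the 9 was higher.

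Plxna3 had 22.3, 28.04 and 28.9 CPM in the adult samples, against 290, 323, 282 and 301 CPM in the embryonic samples (−3.38, SE 0.10, adjusted p = 1.76e-12). Plxnb3 had 21.9, 32.9 and 27.6 CPM in the adult samples, against 0.813, 0.221, 0.894 and 0.832 CPM in the embryonic samples, which rest on 502 to 777 reads in adult libraries and 5 to 19 reads in embryonic libraries. The difference was 4.83 (SE 0.28, adjusted p = 2.31e-09), the highest of the 46 genes. Neither gene's groups overlapped.

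Plxnd1, the plexin that binds Sema3e and is prominent in blood vessels, had 94.3, 130 and 107 CPM in the adult samples, against 120, 98.8, 114 and 112 CPM in the embryonic samples. The groups overlapped and it was not called (0.06, SE 0.11, adjusted p = 0.611), with the opposite sign after centring (−0.12) and without adult replicate 2 (−0.07). Plxnc1, a receptor of Sema7a, had 61.5, 49.9 and 48.7 CPM in the adult samples, against 66.9, 71.0, 54.0 and 73.5 CPM in the embryonic samples. It was not called either (−0.22, SE 0.11, adjusted p = 0.0883) but passed the threshold without adult replicate 1 (−0.32, adjusted p = 0.0250) and without embryonic replicate 3 (−0.32, adjusted p = 0.0127), after centring (−0.41, adjusted p = 0.00477) and with voom on the recovered counts (−0.26, adjusted p = 0.0478).

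**Figure D2:**
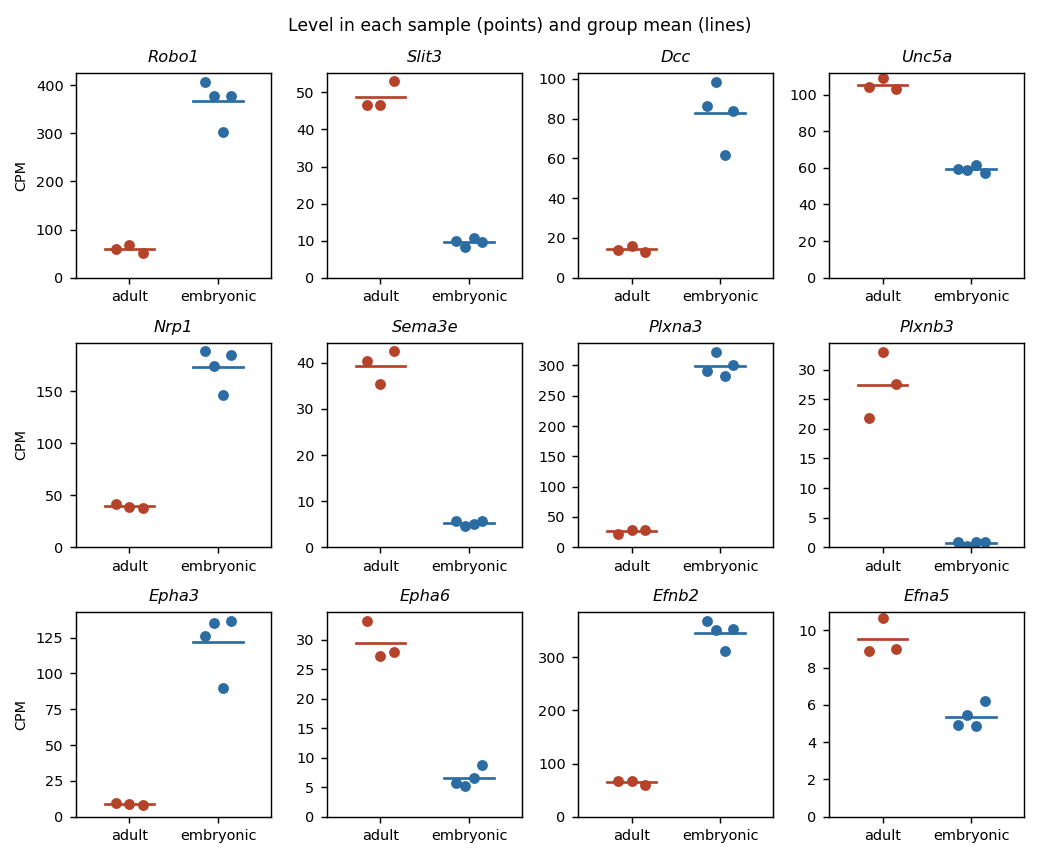
Level in each sample for 12 genes, in CPM on linear axes from 0, with adult samples (n = 3) left of embryonic samples (n = 4) and lines at the group means. The groups are apart in every panel, with Slit3, Unc5a, Sema3e, Plxnb3, Epha6 and Efna5 higher and the other 6 lower in adult cortex; embryonic replicate 3 is the low embryonic point for Robo1 (303 CPM) and Epha3 (89.8 CPM).

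The neuropilins, ligand-binding partners of plexins, were both lower in adult cortex. Nrp1 had 41.5, 38.8 and 37.8 CPM in the adult samples, against 189, 174, 146 and 184 CPM in the embryonic samples (−2.02, SE 0.09, adjusted p = 1.47e-10). Nrp2 had 49.4, 44.4 and 42.3 CPM in the adult samples, against 165, 159, 164 and 160 CPM in the embryonic samples (−1.73, SE 0.07, adjusted p = 1.03e-10). The groups did not overlap for either gene.

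The EphA receptors, kinases that chiefly bind ephrin-A ligands, held the lowest difference of the 46 genes and differed in both directions. Epha3 had 9.91, 8.90 and 8.40 CPM in the adult samples, against 126, 135, 89.8 and 136 CPM in the embryonic samples (−3.54, SE 0.13, adjusted p = 1.72e-11). Epha6 had 33.2, 27.2 and 27.8 CPM in the adult samples, against 5.75, 5.23, 6.54 and 8.83 CPM in the embryonic samples (2.15, SE 0.15, adjusted p = 1.08e-08). Neither pair of groups overlapped. Epha5 (−1.01, SE 0.10, adjusted p = 3.99e-07) and Epha7 (−0.42, SE 0.09, adjusted p = 0.000645) were lower. Epha4, which binds ephrins of both kinds, was called higher by 0.38 (SE 0.11, adjusted p = 0.00614), but its CPM ranges overlapped (203 to 248 in adult samples, 151 to 207 in embryonic samples) and the call was lost after centring.

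Of the EphB receptors, Ephb2, a partner of ephrin-B ligands at midline tracts and synapses, had 20.4, 28.2 and 19.5 CPM in the adult samples, against 177, 185, 153 and 159 CPM in the embryonic samples (−2.77, SE 0.12, adjusted p = 1.02e-10). Ephb3 had 21.5, 28.9 and 21.2 CPM in the adult samples, against 12.9, 15.4, 13.7 and 12.5 CPM in the embryonic samples (0.85, SE 0.12, adjusted p = 2.73e-05). The groups lay apart for both, in opposite directions, and Ephb1 was lower (−1.40, SE 0.10, adjusted p = 3.06e-08).

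Ephrin-A ligands, which are held by a lipid anchor, changed in both directions, and the transmembrane ephrin-B ligands were all lower in adult cortex. Efna5 had 8.90, 10.7 and 8.97 CPM in the adult samples, against 4.93, 5.45, 4.89 and 6.19 CPM in the embryonic samples (0.84, SE 0.12, adjusted p = 2.89e-05). Efna2 had 6.94, 6.86 and 5.10 CPM in the adult samples, against 27.7, 26.9, 29.3 and 24.7 CPM in the embryonic samples (−1.92, SE 0.12, adjusted p = 3.67e-09). Neither gene's groups overlapped, and Efna3 was higher by 0.46 (SE 0.09, adjusted p = 0.000369).

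Efnb1 had 15.7, 20.04 and 13.7 CPM in the adult samples, against 99.1, 116, 91.5 and 82.8 CPM in the embryonic samples (−2.43, SE 0.13, adjusted p = 1.21e-09). Efnb2, known from arteries and from the embryonic cortex, was lower by a like amount (−2.31, SE 0.08, adjusted p = 1.28e-11), at 59.9 to 68.0 CPM in adult samples and 312 to 369 CPM in embryonic samples. Efnb3 had 95.1, 133 and 94.7 CPM in the adult samples, against 128, 151, 162 and 141 CPM in the embryonic samples. Its groups overlapped through adult replicate 2, and the call (−0.36, SE 0.12, adjusted p = 0.0166) was lost without adult replicate 1 (adjusted p = 0.0850), without adult replicate 3 (0.0870) and without embryonic replicate 3 (0.0575).

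**Figure D3:**
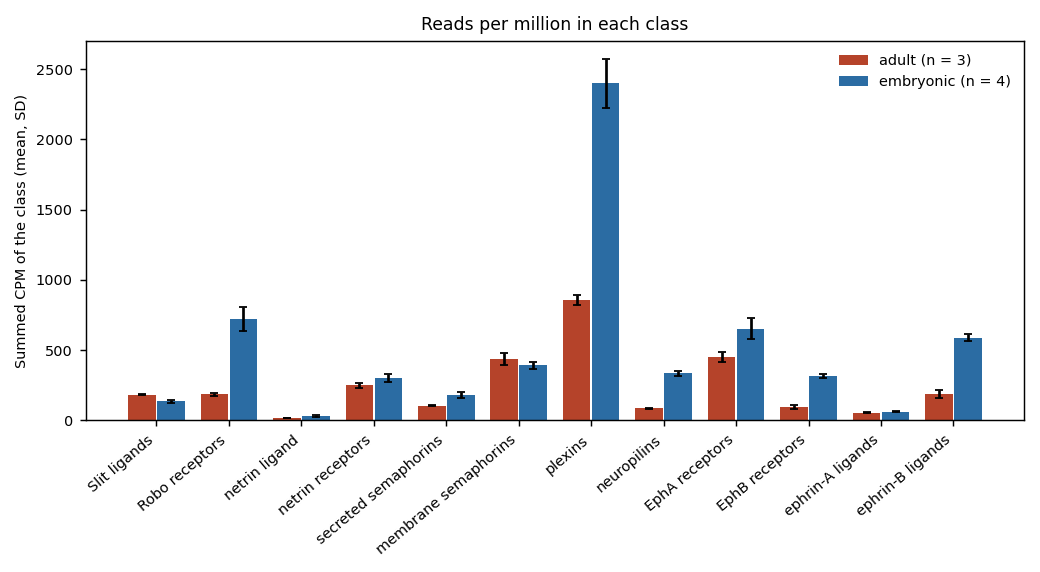
Summed level of each class in CPM, as mean and SD of the adult (n = 3) and embryonic (n = 4) samples. Plexins, at 855 CPM in adult cortex and 2400 CPM in embryonic cortex, take the largest sum in both groups, and Slit ligands and membrane semaphorins are the classes whose mean is higher in adult cortex.

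Known partners can be set side by side from these values. Slit2 and Slit3 were higher while Robo1 and Robo2 were lower, and Slit1 was not called. The Slit2 call was lost when samples were centred on their medians (0.13). Robo3 (3.37) and Robo4 (0.70) were higher, in the same direction as Slit2 and Slit3. Sema3e was higher while its receptor Plxnd1 was not called, and Sema7a was higher while its receptor Plxnc1 was not called. Sema3a and Nrp1 were both lower, as were Sema3f and Nrp2, Ntn1 and Dcc, and Sema6a with Plxna2 and Plxna4. Sema4d, the ligand of plexin B1, was higher, while Plxnb1 was lower (127 to 149 CPM in adult samples, 202 to 244 CPM in embryonic samples). These are RNA levels of whole tissue, and whether the partners were made by neighbouring cells was not measured.

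Set per kilobase of annotated exon (GENCODE M21), the highest levels among the 46 genes in adult cortex were those of Sema7a at 45.4, Efnb3 at 33.8, Epha4 at 28.5 and Unc5a at 25.3 CPM per kilobase. In embryonic cortex they were those of Efnb2 at 50.5, Efnb3 at 45.8, Plxna2 at 39.4 and Plxna3 at 37.9 CPM per kilobase. The lowest were Epha3 at 1.04 CPM per kilobase in adult cortex and Plxnb3 at 0.106 CPM per kilobase in embryonic cortex. Efnb3 was the one gene among the 4 highest of both groups.

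Single libraries departed from their group for many of these genes at once. Embryonic replicate 3 was the lowest embryonic sample for 25 of the 46 genes (54.3%), against 27.0% of all genes tested. Adult replicate 2 was the highest adult sample for 22 of the 46 (47.8%), against 31.4% of all genes, and adult replicate 3 the lowest adult sample for 22 of the 46 (47.8%), against 30.7%. Without embryonic replicate 3 the count was 14 higher and 27 lower in adult cortex, without adult replicate 2 it was 14 and 27, and without adult replicate 3 it was 14 and 25. Exons of 8 of the genes (Unc5a, Unc5c, Plxna1, Plxna4, Plxnb1, Epha6, Ephb1 and Efna3) overlap an annotated gene on the opposite strand, and reads of the partners could not be separated here.

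Beyond the 46 genes, 88 other genes listed with these pathways gave 27 higher and 47 lower calls in adult cortex. The remaining 14 were not called, and the median difference was −0.32. Beside this count and those of each list below stand the shares over all genes tested. Of those, 69.7% were called, 35.8% as higher and 33.9% as lower in adult cortex. Of 7 further genes listed with the Slits and Robos, 3 were higher and 2 lower. The list includes Slitrk1 and Slitrk2, which are neither Slits nor Robos, and Slitrk2 was not called. Robo3, the family member known for midline crossing, had 28.4 ± 8.61 CPM in adult cortex and 2.33 ± 0.358 CPM in embryonic cortex (3.37, SE 0.18). It was opposite in direction to Robo1 and Robo2, as was Robo4 (0.70, SE 0.11). Slitrk1, a leucine-rich repeat protein of neurites, was higher by 0.96. Srgap1 and Srgap2, GTPase-activating proteins that bind Robo receptors, were lower (−2.48 and −1.35).

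Of 9 further netrin pathway genes, 1 was higher and 7 were lower. Draxin, a secreted inhibitor of netrin signalling listed in the table under its older symbol 2610109H07Rik, had 1.36 ± 0.161 CPM in adult cortex and 210 ± 10.1 CPM in embryonic cortex, and its difference of −6.74 (SE 0.09) exceeded that of any of the 46 genes. Neo1, a receptor of netrins and of repulsive guidance molecules, was lower (−1.70, SE 0.07), and so was Ntn3 (−0.35, SE 0.11, adjusted p = 0.0138). Ntn5 was the one called higher, with 60 to 102 reads in adult libraries and 0 to 1 reads in embryonic libraries.

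The 10 other semaphorins split evenly, with 5 higher and 5 lower. The secreted Sema3b (2.05, SE 0.16) and Sema3d (1.83, SE 0.16) were higher, and the transmembrane Sema4c (−2.74, SE 0.10) and Sema6c (−2.73, SE 0.09) were lower. Of 8 other Eph receptors and ephrins, 3 were higher and 3 lower. Epha10 and Ephb6, receptors without kinase activity, were higher (3.16, SE 0.12, and 0.95, SE 0.10), and Efna4 was lower (−4.15, SE 0.16), with 6 to 8 reads in adult libraries and 185 to 255 reads in embryonic libraries, as was Ephb4, a receptor known from veins (−0.58, SE 0.11).

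Of 54 intracellular mediators, 15 were higher and 30 lower. Ngef, the exchange factor ephexin that acts below EphA receptors, had 334 ± 35.7 CPM in adult cortex and 30.4 ± 3.47 CPM in embryonic cortex (3.51, SE 0.10). Dpysl3 and Dpysl5, cytoplasmic relays of semaphorin signals in growth cones, were lower (−5.37, SE 0.11, and −4.77, SE 0.10), and Dpysl3 had 57.2 ± 12.04 CPM in adult cortex and 2506 ± 132 CPM in embryonic cortex.

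The exon table asks whether the same parts of each gene were used in the 2 groups. It holds a score per exon from which the exon's share of its gene's reads was recovered, and exon shares of a gene can sum to over 100%. Exons of 26 of the 46 genes could be tested, 551 exons in all. Limma's diffSplice test sets the score of each exon against those of the other exons of its gene. Its calls and adjusted p-values refer to that relative shift and not to the printed share alone. In it 34 exons were called, 16 with a relatively higher and 18 with a relatively lower share in adult cortex, against 4.86% of all exons tested. The count was 21 without adult replicate 2 and 56 without adult replicate 3. By the Simes test over the exons of a gene 9 of the 26 genes were called (Robo2, Epha5, Nrp2, Plxnb2, Epha7, Unc5d, Ephb1, Sema4a and Plxna1), against 28.8% of all genes with exons tested; the count was 6 without adult replicate 1 and 14 without adult replicate 3. Positions are starts on build mm9, and exons are numbered from the 5′ end among those listed.

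In Nrp2, exon 16 of 18 (chromosome 1, start 62842283) took 14.3%, 11.1% and 10% of the gene's reads in the adult samples, against 3.23%, 3.23%, 3.45% and 3.45% in the embryonic samples. The groups were far apart (adjusted p = 1.74e-08). The gene's reads multiplied by these shares come to about 125 reads per adult library and 113 per embryonic library. Reads on the exon were not counted separately. On that reckoning the exon was nearly level while the reads of the gene were lower in adult cortex. In Robo2, exon 27, the 3′-most of 27 (chromosome 16, start 72663394), took 1.47%, 1.56% and 1.23% in the adult samples, against 4.17%, 4.17%, 2.78% and 3.45% in the embryonic samples (adjusted p = 8.34e-18). Robo2 had 9 called exons in all, 4 with a higher and 5 with a lower share in adult cortex. Its first listed exon also had a lower share, at 0.149 ± 0.0458% in adult cortex and 0.508 ± 0.0977% in embryonic cortex. The whole gene had 2753 to 3057 reads in adult libraries, so that adult share rests on few reads.

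In Epha5, exon 5 of 18 (chromosome 5, start 84662608) took 1.54%, 2.50% and 2.33% in the adult samples, against 4.76%, 5.56%, 5.56% and 3.70% in the embryonic samples (adjusted p = 1.55e-11). In Epha7, the exon with the largest difference was exon 10 of 18 (chromosome 4, start 28873369), at 6.62 ± 1.57% in adult cortex and 3.70 ± 0.538% in embryonic cortex (adjusted p = 0.000118). Epha7 had 10 called exons, and their direction followed their position: 5 within exons 1 to 10 had a higher share and 5 within exons 11 to 18 a lower share in adult cortex. Summed over exons 1 to 10, a stretch chosen after the values were seen, the shares were 73.8%, 81.3% and 79.7% in the adult samples, against 54.5%, 54.9%, 52.6% and 54.3% in the embryonic samples. Over exons 11 to 18 they were 42.9%, 35.6% and 38.7% in the adult samples, against 57.1%, 59.1%, 57.5% and 57.5% in the embryonic samples. Of these sums exon 18, which was not called and moves in coarse steps, held means of 23.3% in adult and 33.3% in embryonic cortex. Without it, exons 11 to 17 summed to 17.9%, 15.6% and 13.7% in the adult samples, against 23.8%, 25.7%, 24.2% and 24.1% in the embryonic samples. Epha7 is known to be made as a full-length receptor and as truncated forms that lack the kinase domain. Which forms these exons belong to was not determined.

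**Figure D4:**
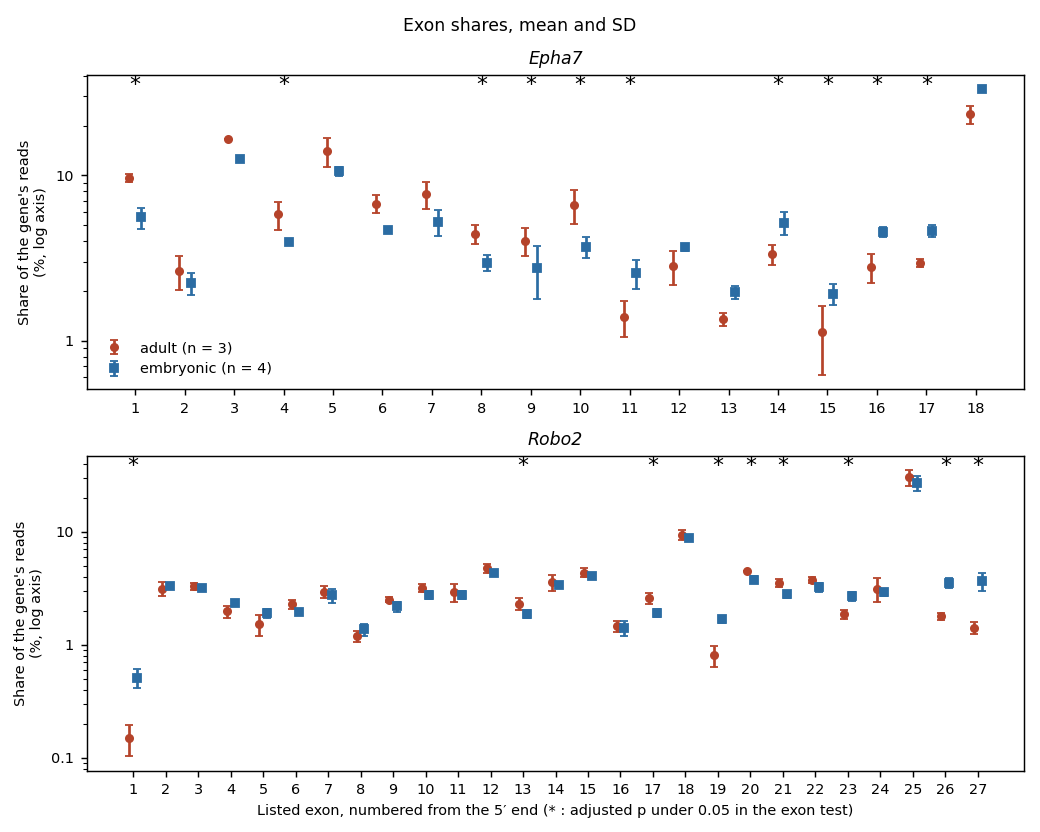
Share of the gene's reads on each listed exon of Epha7 and Robo2, numbered from the 5′ end, in percent on a log axis, as mean and SD of adult (n = 3) and embryonic (n = 4) samples. Stars mark exons past the adjusted threshold: in Epha7 the adult shares are higher over exons 1 to 10 and lower over exons 11 to 18, and in Robo2 the last exon is at 1.42% in adult cortex and 3.64% in embryonic cortex.

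The other exons were smaller in share or in reads. Unc5d exon 13 (chromosome 8, start 29804987) was at 2.11 ± 1.10% in adult cortex and 4.64 ± 0.989% in embryonic cortex (adjusted p = 0.000629). Plxna1 exon 1 (chromosome 6, start 89312401) was at 0.833 ± 0.248% in adult cortex and 0.395 ± 0.0791% in embryonic cortex (adjusted p = 0.00918), and passed neither without adult replicate 2 (adjusted p = 0.137) nor without embryonic replicate 1 (0.0523). Plxnb2 exon 2 (chromosome 15, start 89004222) was called at 0.219 ± 0.0954% in adult cortex and 0.0356 ± 0.0155% in embryonic cortex. The gene's reads multiplied by these shares come to a mean of about 4 reads per adult library and 2 per embryonic library.

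The exons of Ephb1 and Sema4a had overlapping groups. Ephb1 exon 4 (chromosome 9, start 101969201) was at 4.01 ± 0.985% in adult cortex and 2.94 ± 0.549% in embryonic cortex (adjusted p = 0.0101), and was lost without adult replicate 1 (0.342), embryonic replicate 2 (0.163) or embryonic replicate 3 (0.0567). Sema4a exon 2 (chromosome 3, start 88262733) was at 1.19 ± 0.685% in adult cortex and 2.17 ± 0.852% in embryonic cortex (adjusted p = 0.0142), and was lost without adult replicate 1 (0.461), adult replicate 2 (0.0545), embryonic replicate 1 (0.133) or embryonic replicate 3 (0.0728).

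Shares are recovered as 100% over a whole number, so a large share moves only in coarse steps, such as 100%, 50% and 33.3%. For the 3′-most listed exon the mean share was lower in adult cortex in 9 of the 26 genes and higher in 9, and in the remaining 8 it stood at 50% or 100% in both groups, where a small shift cannot show. It was lower without overlap of the groups in 5 (Epha5, Epha7, Nrp2, Robo2 and Sema4d) and higher without overlap in 0, and of these exons only that of Robo2 was called by diffSplice.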

How the data were processed

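mRNA sequencing of cerebral cortex was deposited as a gene table and an exon table with 1 column per sample. Per the submitters' processing notes, Bowtie 0.12.7.0, CASAVA 1.7.1, HTSeq 0.5.3p3, SAMtools 0.1.7a and TopHat 1.0.13 were used with the mm9 build, with no role or order stated. The authors deposited the gene values after variance stabilization, on a scale close to log2. The exon values were deposited as a variance-stabilized score that falls as an exon's share of its gene's reads rises. The tool for either, and whether counting used strand, are not given in the sources used here. Exons of 11 of the 46 genes overlap another annotated gene, 8 of them on the opposite strand, whose reads cannot be told apart.

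Read counts were recovered from the steps of the gene values: in each sample 100% of steps up to 20000 reads lay within 0.1 of a whole read. For the exon values 88.0% to 92.9% of steps did so. Of the 3857 exon values of the 46 genes, 3832 lie in the unbroken run of whole numbers at the start of their column and 24 of the other 25 within 0.1; the exception is an embryonic value of Plxnb2 exon 2. Counts give the CPM levels and depth. Replicates of a group differed by more than sampling noise (chi-square per degree of freedom 4.83 to 17.7), so none was merged.

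Tests used R 4.3.3 and limma 3.58.1 on the deposited values of all 7 samples, two-sided, with a mean-variance trend, Benjamini-Hochberg adjustment over 22828 genes and a threshold of 0.05. Left out were rows whose value was the lowest of its column in over 3 of the 7 samples. Exons were tested with diffSplice over 86181 exons. The scripts were tested on simulated data. Alternatives were filters, scalings, a 2-fold null, voom with TMM factors on the recovered counts, a replicate block and leaving out each sample. Sequences are from RefSeq (GRCm38.p6). The 46 genes and all lists were chosen with earlier results of these data known.

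Values of every sample are given for the genes with the highest and lowest difference in each class and for genes not called. Of each pathway list the 2 called genes with the highest and the 2 with the lowest difference are named, except 1 gene that is not reported here, and of each gene called by the Simes test the exon with the largest difference. Other genes and exons are named after their values were seen.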

Additional observations from a re-analysis of the deposited data

Results flagged for a closer look

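Of 46 gene levels and 9 exon shares checked in the 4 embryonic samples, 7 had 1 sample whose gap to the nearest other took up more of the group's range than Dixon's 95% critical value for 4 samples, which chance passes in about 1 in 20 groups. In 6 of them embryonic replicate 3 was the low sample: Robo2 at 294 CPM, Sema6d at 80.4 CPM, Plxna2 at 552 CPM, Plxna4 at 441 CPM, Epha3 at 89.8 CPM and Epha4 at 151 CPM. In the remaining one embryonic replicate 2 was low, with Plxnb3 at 0.221 CPM, which is 5 reads. Without embryonic replicate 3 the calls of Robo2, Plxna2, Plxna4, Epha3, Epha4 and Sema6d kept their direction and their side of the threshold.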

How the results depend on the processing

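Outside the 2-fold null, 37 of the 46 genes kept their direction and their side of the threshold under all 14 alternatives; the exceptions are Slit1, Slit2, Unc5c, Sema5a, Sema6d, Plxnc1, Plxnd1, Epha4 and Efnb3. Leaving out 1 sample gave 14 to 15 genes higher and 25 to 27 lower in adult cortex, 71 to 75 of the other pathway genes called (74 with all samples), and 21 to 56 exons called. Against a 2-fold null 4 genes were higher, 16 lower and 34 pathway genes called. Over all genes the median difference was 0.03 as deposited, −0.16 with samples centred on their medians and −0.13 with quantile normalization. Centring gave 12 higher and 28 lower; with it Slit1 (−0.0701) and Plxnd1 (−0.117) changed sign. Over the fits that leave out 1 sample Plxnd1 ran from −0.0658 to 0.176 and Sema5a from −0.206 to 0.0454. The cause of these changes was not tested. Unc5c lost its call in 11 of the 14 alternatives, Sema6d in 7 and Efnb3 in 4. Same-numbered adult and embryonic samples deviated with correlations of 0.01, 0.06 and 0.04. Adult replicates 2 and 3 correlated best with the embryonic sample of the same number, and adult replicate 1 with embryonic replicate 4 (0.06). The labels do not say whether the numbers pair the samples, and correlations this small cannot settle it. With a replicate block the counts were 15 higher, 27 lower and 40 exons. Only the embryonic group has a replicate 4, so in the block fit that sample did not inform the differences. The median difference of the 46 genes was −0.60 both with the block and without embryonic replicate 4. The exon test has no mean-variance trend, so that alternative was not run for it. Genes and exons with few reads, such as Plxnb3 in embryonic cortex and Plxnb2 exon 2, are limited by depth.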
